A study of Mus musculus with 18 samples.

Results

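The genes described here are 10 mouse genes that encode mitochondrial proteins tied to low oxygen: the paralog pairs *Ndufa4* and *Ndufa4l2*, and *Cox4i1* and *Cox4i2*, the mitophagy receptors *Bnip3*, *Bnip3l* and *Fundc1*, and *Mgarp*, *Higd1a* and *Lonp1*. They were taken by symbol from the 55491 rows of the gene count file, all 10 were found, and all 10 passed the filter on low counts. *Ndufa4l2* and *Mgarp* were chosen because their counts had already been seen to rise steeply in 1% O2, so their oxygen response is given as a description, with no test, and they are left out of the counts of genes called in that comparison. The other 8 were chosen by function.

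Poly-A RNA-seq was performed on tail tendon fibroblasts (TFs) from mice of both sexes, aged 4 to 6 months, after 4 days of culture in 20% or 1% O2, with 3 libraries in each of 6 groups. Ctrl TFs were Cre-negative and labelled wild-type, cKO TFs came from *Hif1a* fl/fl; *ScxCre* mice, in which Cre is made under the tendon-lineage gene *Scx*, and the last set was Ctrl TFs given gesicles, that is, vesicles loaded with Cre protein. The breeding scheme yields Cre-negative mice that are *Hif1a* fl/fl, while the labels call the Ctrl genotype wild-type, so whether the gesicle-treated TFs carried an allele that Cre can delete is not given. All groups were outgrowths from collagen gels on tissue culture plastic.

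In cells, cytochrome *c* oxidase (complex IV) passes electrons to oxygen. Some of its subunits exist in a common form and a form induced in hypoxia. NDUFA4 is a subunit of complex IV, and NDUFA4L2 is its hypoxia-induced relative. COX4I1 is the common form of subunit 4 and COX4I2 the form known from hypoxia, and the matrix protease LONP1 can degrade COX4I1. Mitophagy, the removal of mitochondria by autophagy, is started in hypoxia by the outer membrane receptors BNIP3, BNIP3L (NIX) and FUNDC1. MGARP is a mitochondrial protein known to take part in moving mitochondria, and HIGD1A is an inner membrane protein that associates with respiratory chain complexes. The hypoxia-inducible factors HIF-1 and HIF-2 bind DNA at hypoxia response elements, whose core letters are ACGTG or GCGTG.

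The stretches upstream of 3 of the genes are shown because they hold these core letters beside a steep rise in 1% O2 (*Bnip3*, *Mgarp*) or beside a level that did not rise (*Lonp1*). Each reads 5′ to 3′ toward the gene, from RefSeq on build GRCm38.p6, and capitals mark ACGTG or GCGTG on either strand, so that on the other strand they read CACGT or CACGC. The *Bnip3* window is chr7:138909507-138909756 and the *Lonp1* window chr17:56626904-56627153, both on the minus strand and ending at the base before the RefSeq start. The *Mgarp* stretch is chr3:51396748-51396797, minus strand, the far end of its window.
Bnip3: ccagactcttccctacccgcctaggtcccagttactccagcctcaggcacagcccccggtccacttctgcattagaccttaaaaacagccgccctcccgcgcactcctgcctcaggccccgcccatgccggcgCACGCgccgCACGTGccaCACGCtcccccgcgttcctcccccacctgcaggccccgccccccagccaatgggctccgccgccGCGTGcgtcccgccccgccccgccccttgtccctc
Mgarp: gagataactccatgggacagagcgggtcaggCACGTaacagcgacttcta
Lonp1: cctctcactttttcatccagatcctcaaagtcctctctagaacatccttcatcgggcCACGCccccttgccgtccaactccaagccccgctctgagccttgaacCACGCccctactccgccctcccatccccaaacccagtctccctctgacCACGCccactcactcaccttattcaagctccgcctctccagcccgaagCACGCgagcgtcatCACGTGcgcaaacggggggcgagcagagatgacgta

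Promoter windows of 250 bases were found for 6 of the 10 genes, and *Ndufa4l2*, *Cox4i1*, *Cox4i2* and *Bnip3l* are named only. *Bnip3* held 5 matches, of which 2 are the overlapping readings of 1 CACGTG, and *Lonp1* held 6, again with 1 CACGTG read on both strands. *Higd1a* held 2 overlapping GCGTG matches that end 62 bases before the start, in a window whose 250 bases all lie in annotated exons of the gene. *Mgarp* held 1 match, 215 to 219 bases before the RefSeq start, and *Ndufa4* and *Fundc1* held 0. Exons of the same gene cover 69 bases of the *Mgarp* window (56 of them coding) and 105 of *Fundc1* (28 coding). For *Ndufa4* and *Bnip3* they cover 47 and 13. The annotated *Mgarp* gene starts at 51396738, inside its window and nearer to the match. The *Fundc1* window lies wholly within the annotated gene, so its 0 does not describe bases upstream of that gene. Of 32851 promoter windows of the same length, 16.6% held ACGTG, 28.2% held GCGTG, 38.6% held either and 6.0% held CACGTG. Of these 6 windows that of *Lonp1* held the most matches, with both readings of a CACGTG counted, and its level did not rise in 1% O2. The part of these matches in the oxygen response was not tested.

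Library totals ranged from 6857558 to 51806453 counts, and 17 libraries held at least 26967440. All 11 markers of tendon fibroblasts were present in every group, with 7091 to 18378 CPM in sum. Between genotypes, *Dcn*, which encodes the matrix proteoglycan decorin, was called higher in cKO TFs in 20% (log2 difference 1.96, SE 0.29, adjusted p = 0.0233 by edgeR) and 1% O2 (2.58, SE 0.29, adjusted p = 0.0171 by edgeR). *Lum*, which encodes the proteoglycan lumican, was called higher in 20% O2 (3.44, SE 0.55, adjusted p = 0.0252 by edgeR), and *Acta1*, the skeletal muscle actin, lower (-1.28, SE 0.24, adjusted p = 0.0449 by edgeR). The summed CPM of 11 pericyte or mural cell markers was 1398 to 2551, with *Higd1b* at 0 in every library, and that of 5 endothelial markers was at most 0.885. The median mural sum in 20% and 1% O2 was 2528 and 1698 CPM in Ctrl, 1529 and 1485 CPM in cKO and 2040 and 2075 CPM in gesicle-treated TFs, and most of it was *Acta2* (1804 CPM on average in Ctrl TFs in 20% O2). The pericyte marker *Rgs5* was called higher in 1% O2 in gesicle-treated TFs (log2 fold change 1.09, SE 0.24, adjusted p = 0.0235 by edgeR). Its values of 0.41 in Ctrl and 0.70 in cKO TFs were not called. The other mural markers tested went both ways in gesicle-treated TFs, from -1.26 (*Notch3*) to 0.74 (*Kcnj8*), and were not called. The endothelial marker *Kdr* was called lower in gesicle-treated TFs (-4.28, SE 0.98, adjusted p = 0.0339 by edgeR), at levels near the detection limit. Its means in 20% and 1% O2 were 0.459 and 0.020 CPM there, and 0.393 and 0.028 CPM in Ctrl TFs. The part of these markers in the values of the 10 genes was not tested. *Hif1a*, the targeted gene, was not lower in the whole-gene counts of cKO TFs. Its log2 difference from Ctrl TFs was 0.11 (SE 0.16, adjusted p = 0.757 by edgeR) in 20% O2 and 0.08 (SE 0.16, adjusted p = 0.819 by edgeR) in 1% O2. The floxed exon was not counted apart from the rest of the gene. By qPCR after a longer culture, the paper reports reduced expression of the targeted gene in cKO TFs. Replicate 2 of cKO TFs in 20% O2 stood apart from the other libraries of its group, and replicate 1 of cKO TFs in 1% O2 was the shallow library with 6857558 counts, so the values that moved most with them are also given without them.

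All 10 genes had at least 1 count in each of the 18 libraries. The level of each gene is given as CPM, its counts relative to the library total scaled by TMM, and levels are compared between genes only after division by the gene's exon length in kilobases. In Ctrl TFs in 20% O2, the mean level per kilobase fell in the order *Cox4i1* (128 ± 4.17 CPM per kilobase, SD, n = 3), *Ndufa4* (62.2 ± 4.92), *Bnip3l* (48.8 ± 1.94), *Bnip3* (35.3 ± 2.99), *Fundc1* (31.0 ± 2.23), *Lonp1* (25.04 ± 2.61), *Higd1a* (14.8 ± 0.762), *Ndufa4l2* (1.68 ± 0.492), *Cox4i2* (0.309 ± 0.0916) and *Mgarp* (0.0691 ± 0.0243). The ranges of mean ± SD overlapped there for the neighbours *Bnip3* and *Fundc1* only. In 1% O2, *Bnip3* moved to the first place with 171 ± 11.96 CPM per kilobase and *Ndufa4l2* to the third with 71.9 ± 6.51, above *Ndufa4* with 48.8 ± 3.78, while *Cox4i2* (3.24 ± 0.857) and *Mgarp* (2.90 ± 0.654) stayed at the foot. The ranges of mean ± SD overlapped for these last genes and for the neighbours *Ndufa4l2* and *Bnip3l* (65.1 ± 3.78), and *Fundc1* (38.9 ± 4.97) and *Higd1a* (31.96 ± 3.09). *Ndufa4l2*, *Cox4i2* and *Mgarp* were also the lowest in 20% O2 in cKO TFs and in gesicle-treated TFs. In bulk RNA, a change in the share of cells that express a gene and a change in RNA per cell cannot be told apart.

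**Figure D1:**
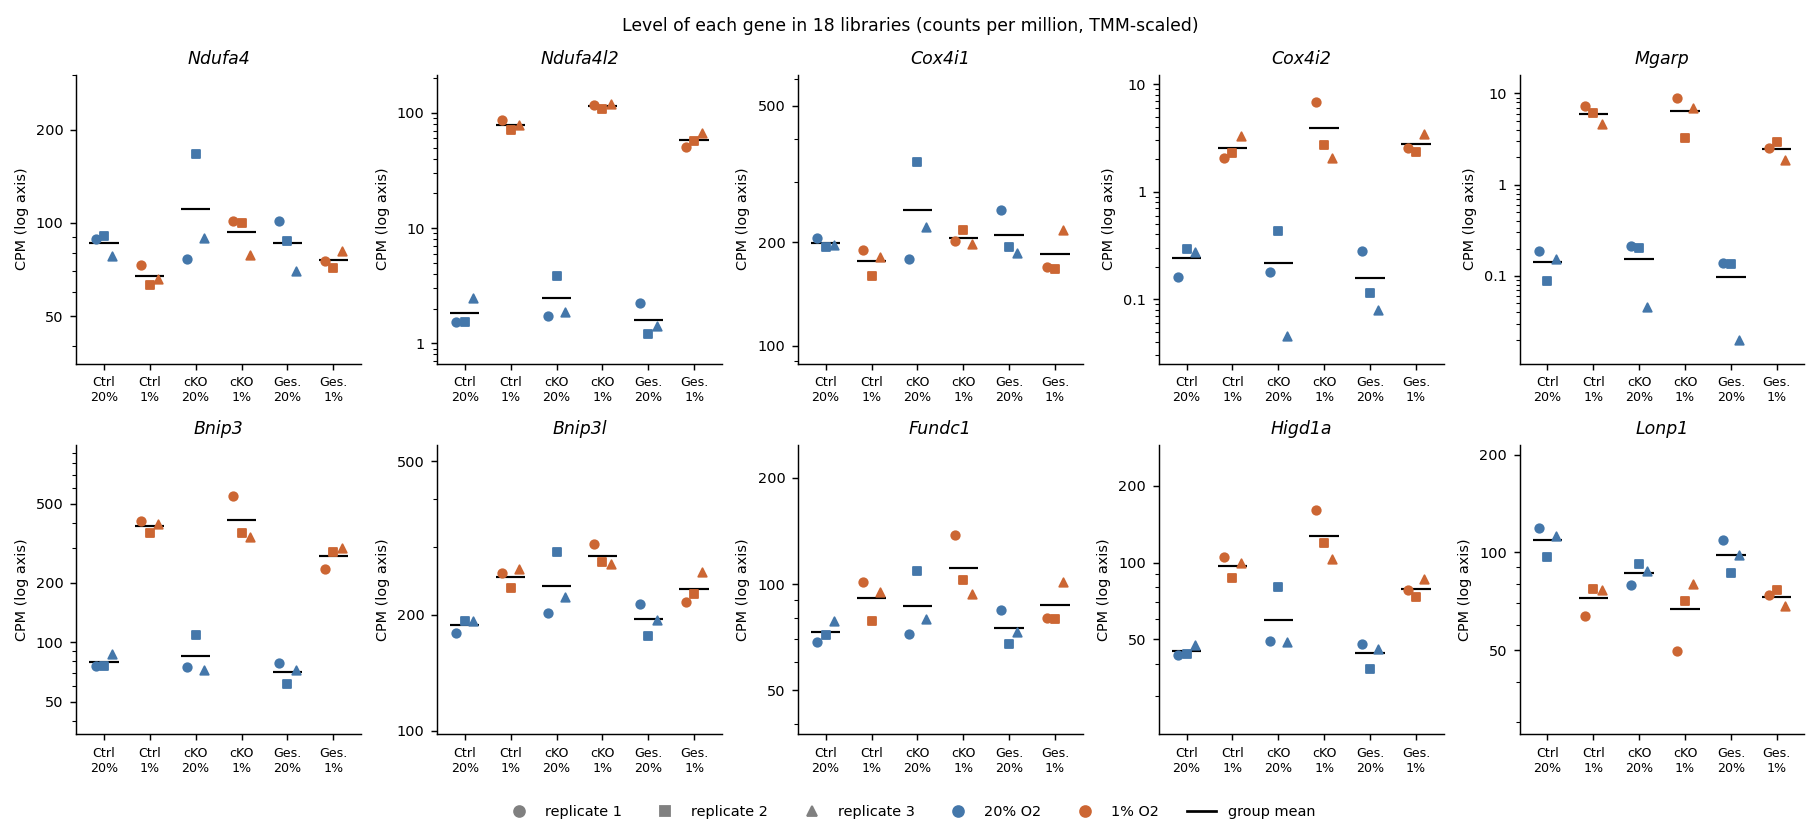
Level of each of the 10 genes in CPM (log axis, 1 panel per gene) in the 18 libraries, with 1 point per library, shaped by replicate number and coloured by O2 level, and a line at each group mean; Ges. marks gesicle-treated Ctrl TFs. *Ndufa4l2*, *Mgarp*, *Cox4i2*, *Bnip3* and *Higd1a* lie higher in 1% than in 20% O2 in each pair of groups (cKO TFs of *Higd1a* from 80.4 at most to 103 at least), and the other 5 panels span narrow ranges.

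The first question was how each gene changed between 20% and 1% O2 in Ctrl, cKO and gesicle-treated TFs. *Ndufa4l2* and *Mgarp* rose most, *Cox4i2*, *Bnip3* and *Higd1a* were called higher in all 3 arms, and *Ndufa4*, *Cox4i1*, *Bnip3l*, *Fundc1* and *Lonp1* were not called in any. Calls required both an adjusted p from edgeR below 0.05 and a 1.5-fold change or more. Of the 8 genes, 3 were called in Ctrl TFs, all higher, where 1.88% of the 15850 genes tested were called and 1.47% were called higher. In cKO TFs the count was also 3 of 8, against 2.10% of all genes (1.40% higher), and in gesicle-treated TFs 3 of 8, against 2.41% of 16174 genes (1.64% higher). The median log2 fold change of the 8 genes was 0.38 in Ctrl, 0.31 in cKO and 0.24 in gesicle-treated TFs, beside medians over all genes of 0.00, -0.03 and -0.02.

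*Ndufa4l2* (ENSMUSG00000040280, chromosome 10 from 127514967 to 127517154 on GRCm38) had 1.53, 1.54 and 2.46 CPM in the 3 Ctrl libraries in 20% O2 and 85.9, 71.6 and 78.7 CPM in 1% O2. In cKO TFs it had 1.72, 3.82 and 1.86 CPM in 20% O2 and 117, 108 and 119.5 CPM in 1% O2. In gesicle-treated TFs it had 2.22, 1.1998 and 1.40 CPM and then 50.7, 57.4 and 66.5 CPM. Every 1% library lay above every 20% library by a wide margin, and the 1% levels fell in 3 bands, with cKO above Ctrl and Ctrl above gesicle-treated TFs. The log2 fold change was 5.42 (SE 0.31) in Ctrl, 5.53 (SE 0.31) in cKO and 5.18 (SE 0.31) in gesicle-treated TFs, or 43.0-fold, 46.4-fold and 36.2-fold. Without replicate 2 of cKO TFs in 20% O2, the value in cKO TFs was 6.02 (SE 0.23).

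*Mgarp* (ENSMUSG00000037161, chromosome 3 from 51388412 to 51396738) was close to the detection limit in 20% O2, with 7, 3 and 5 counts in Ctrl, 6, 8 and 2 in cKO and 6, 6 and 1 in gesicle-treated libraries. In 1% O2 it had 265, 204 and 178 counts in Ctrl, 63, 113 and 278 in cKO, where the library with 63 is the shallow one, and 87, 91 and 62 in gesicle-treated libraries. As levels these were 0.188, 0.0886 and 0.152 CPM against 7.32, 6.08 and 4.61 CPM in Ctrl TFs. The cKO libraries had 8.96, 3.25 and 6.95 CPM in 1% O2, the widest spread of the 3 arms, and the gesicle-treated libraries 2.53, 2.94 and 1.87 CPM, all below every Ctrl and cKO library. The log2 fold change was 5.36 (SE 0.53) in Ctrl, 5.38 (SE 0.54) in cKO and 4.63 (SE 0.56) in gesicle-treated TFs. With all libraries thinned to the smallest total the value was 8.34 in Ctrl and 6.88 in gesicle-treated TFs.

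*Cox4i2* (ENSMUSG00000009876, chromosome 2 from 152754173 to 152765037), the hypoxic form of complex IV subunit 4, was also scarce in 20% O2, with 6, 10 and 9 counts in Ctrl libraries, or 0.161, 0.295 and 0.274 CPM. In 1% O2 the Ctrl libraries had 2.04, 2.29 and 3.32 CPM. The cKO libraries went from 0.179, 0.433 and 0.0453 CPM to 6.83, 2.74 and 2.08 CPM, and the gesicle-treated libraries from 0.278, 0.113 and 0.0789 CPM to 2.53, 2.36 and 3.46 CPM. No 1% library overlapped a 20% library in any arm, and the highest value, 6.83 CPM, came from 48 counts in the shallow library. The log2 fold change was 3.39 (SE 0.64, adjusted p = 0.0179 by edgeR) in Ctrl TFs, 4.07 (SE 0.66, adjusted p = 0.0094 by edgeR) in cKO TFs and 4.14 (SE 0.63, adjusted p = 0.00181 by edgeR) in gesicle-treated TFs. In cKO TFs the value was 3.46 (adjusted p = 0.0233 by edgeR) without the shallow library and 5.15 (adjusted p = 0.00411 by edgeR) without replicate 2 in 20% O2. In Ctrl TFs the call was lost on leaving out replicate 3 of the 1% group (adjusted p = 0.0671 by edgeR) or replicate 1, 2 or 3 of the 20% group (edgeR adjusted p = 0.103, 0.0676 and 0.0766), with log2 fold changes from 3.14 to 3.55, and with all libraries thinned to the smallest total (2.62, adjusted p = 0.103 by edgeR).

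*Bnip3* (ENSMUSG00000078566, chromosome 7 from 138890836 to 138909519), the mitophagy receptor whose promoter is printed above, was well expressed already in 20% O2, with 75.8, 76.2 and 87.7 CPM in Ctrl libraries, and had 408, 356 and 397 CPM in 1% O2. The cKO libraries went from 74.8, 108 and 72.1 CPM to 550.3, 357 and 341 CPM, and the gesicle-treated libraries from 78.2, 61.9 and 72.1 CPM to 233, 287 and 298 CPM. The O2 groups did not overlap in any arm, and the gesicle-treated 1% libraries all lay below the Ctrl 1% libraries. The log2 fold change was 2.28 (SE 0.21, adjusted p = 1.7e-04 by edgeR) in Ctrl TFs, 2.29 (SE 0.21, adjusted p = 2.5e-04 by edgeR) in cKO TFs and 1.95 (SE 0.19, adjusted p = 5.0e-05 by edgeR) in gesicle-treated TFs, which are 4.87-fold, 4.91-fold and 3.85-fold. *Bnip3* was called in each of 14 alternative fits in each arm, and its value in cKO TFs was 2.06 without the shallow library.

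*Higd1a* (ENSMUSG00000038412, chromosome 9 from 121848563 to 121858362) had 43.5, 43.8 and 47.6 CPM in Ctrl libraries in 20% O2 and 105, 86.7 and 99.9 CPM in 1% O2. The cKO libraries went from 49.3, 80.4 and 48.8 CPM to 161, 119 and 103 CPM, and the gesicle-treated libraries from 48.1, 38.3 and 45.9 CPM to 78.3, 73.0 and 86.0 CPM. All 1% libraries lay above all 20% libraries of their arm, with the narrowest gap in cKO TFs. The log2 fold change was 1.12 (SE 0.21, adjusted p = 0.0166 by edgeR) in Ctrl TFs, 1.10 (SE 0.21, adjusted p = 0.0204 by edgeR) in cKO TFs and 0.84 (SE 0.19, adjusted p = 0.0248 by edgeR) in gesicle-treated TFs. These calls were near the threshold: in Ctrl TFs the call was lost without replicate 1 or 3 in 1% O2 or any replicate in 20% O2 (edgeR adjusted p from 0.0592 to 0.0876), in cKO TFs without replicate 1 or 2 in 1% O2 or 1 or 3 in 20% O2 (0.0545 to 0.0983), and in gesicle-treated TFs without any replicate in 1% O2 or replicate 2 or 3 in 20% O2 (0.0502 to 0.136). In the fits that lost the call, the log2 fold change lay between 0.75 and 1.16.

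**Figure D2:**
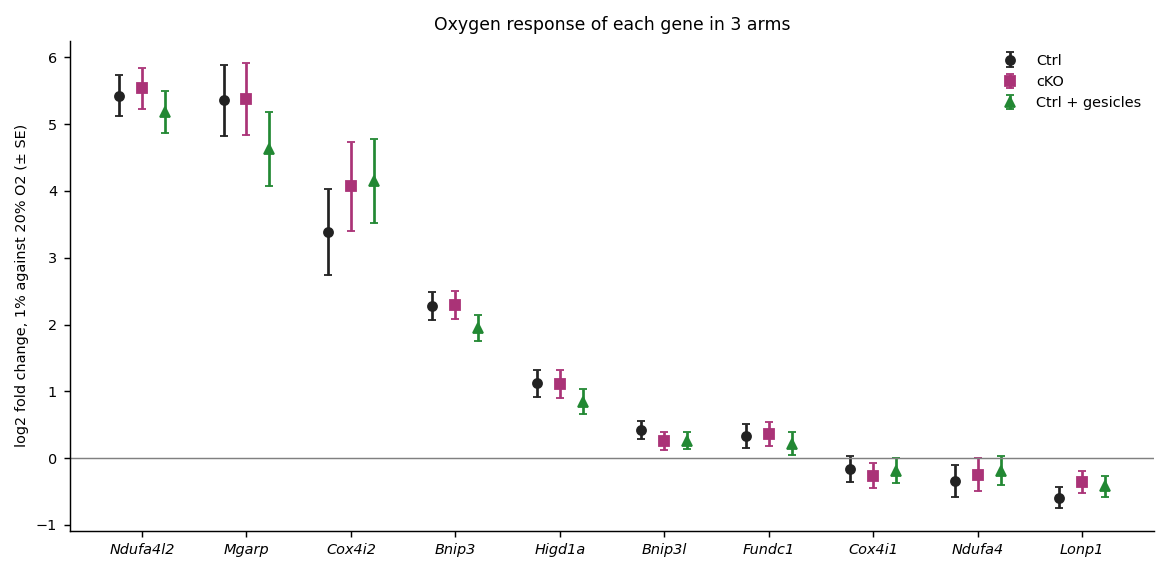
Log2 fold change in 1% against 20% O2 (y axis, points with SE bars) of the 10 genes in Ctrl, cKO and gesicle-treated TFs. *Ndufa4l2* and *Mgarp* lie between 4.63 and 5.53, followed by *Cox4i2*, *Bnip3* and *Higd1a*, and the 5 genes at the right lie between -0.59 and 0.42.

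The remaining mitophagy receptors were not called in any arm. *Bnip3l* (ENSMUSG00000022051, chromosome 14 from 66985239 to 67008877) had 179.7, 193 and 192 CPM in Ctrl libraries in 20% O2 and 257, 234 and 262 CPM in 1% O2, which did not overlap, but the log2 fold change of 0.42 (SE 0.14, adjusted p = 0.149 by edgeR) was not called. It was 0.26 (SE 0.14, adjusted p = 0.313 by edgeR) in cKO and 0.26 (SE 0.13, adjusted p = 0.293 by edgeR) in gesicle-treated TFs. *Fundc1* (ENSMUSG00000025040, chromosome X from 17556564 to 17572325) had log2 fold changes of 0.33 (SE 0.18) in Ctrl, 0.36 (SE 0.18) in cKO and 0.21 (SE 0.17) in gesicle-treated TFs, with edgeR adjusted p from 0.297 to 0.564, and its groups overlapped in each arm. Without replicate 2 of cKO TFs in 20% O2, the values in cKO TFs were 0.44 (adjusted p = 0.0182 by edgeR) for *Bnip3l* and 0.57 (adjusted p = 0.0461 by edgeR) for *Fundc1*, both still under the fold change of 1.5.

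The partners of the hypoxic forms, *Ndufa4* and *Cox4i1*, did not pass the test either. *Ndufa4* (ENSMUSG00000029632, chromosome 6 from 11900292 to 11907497) had 89.0, 90.6 and 78.1 CPM in Ctrl libraries in 20% O2 and 73.2, 63.2 and 65.7 CPM in 1% O2, without overlap, and its log2 fold change was -0.34 (SE 0.24, adjusted p = 0.538 by edgeR). *Cox4i1* (ENSMUSG00000031818, chromosome 8 from 120668222 to 120674207) had 206, 194 and 197 CPM and then 189, 159.5 and 181 CPM, or -0.16 on the log2 scale (SE 0.19, adjusted p = 0.735 by edgeR). In cKO TFs both had overlapping groups and values of -0.25 and -0.26, which became 0.20 and 0.06 without replicate 2 in 20% O2, where that library had 168 CPM of *Ndufa4* and 343 CPM of *Cox4i1*, the highest of all 18. In gesicle-treated TFs both values were -0.19 (SE 0.22 and 0.19).

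*Lonp1* (ENSMUSG00000041168, chromosome 17 from 56614297 to 56626887), which encodes the matrix protease, was the gene with the lowest fold change of the 10. It had 119, 96.9 and 113 CPM in Ctrl libraries in 20% O2 and 63.6, 77.2 and 76.6 CPM in 1% O2, which did not overlap. Its log2 fold change was -0.59 (SE 0.16, adjusted p = 0.0978 by edgeR) in Ctrl, -0.36 (SE 0.16, adjusted p = 0.25 by edgeR) in cKO and -0.42 (SE 0.15, adjusted p = 0.151 by edgeR) in gesicle-treated TFs. It was called in Ctrl TFs by DESeq2 (-0.61, DESeq2 adjusted p = 0.0133) and in the edgeR fit of all 18 libraries (-0.60, adjusted p = 0.0427), and in no other alternative. Over all 8 genes, the groups did not overlap for 7 in Ctrl TFs, 3 in cKO TFs and 5 in gesicle-treated TFs, where 30.0%, 20.6% and 24.0% of all genes tested did not overlap.

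The pairs were set side by side as the share of the hypoxic form in the pair's summed counts per kilobase, a ratio within each library that the scaling between libraries does not touch. *Ndufa4l2* made up 2.12%, 2.09% and 3.83% of its pair in Ctrl libraries in 20% O2 and 59.7%, 58.8% and 60.1% in 1% O2. In cKO libraries it went from 2.77%, 2.79% and 2.56% to 59.3%, 57.5% and 65.7%, and in gesicle-treated libraries from 2.696%, 1.69% and 2.46% to 46.0%, 50.3% and 50.8%. The pair thus went from almost only *Ndufa4* to about equal numbers or more of *Ndufa4l2* transcripts per length, and no gesicle-treated library reached a Ctrl or cKO library in 1% O2. Replicate 2 of cKO TFs in 20% O2 did not stand apart in this ratio, and both genes of the pair were high in it.

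*Cox4i2* stayed a small part of its pair. Its mean share was 0.242% ± 0.0776 (SD, n = 3) in Ctrl TFs in 20% O2 and 2.77% ± 0.699 in 1% O2. In cKO TFs the share was 0.162% ± 0.108 and then 3.55% ± 2.33, with 6.23% in the shallow library and 2.41% and 2.02% in the others. In gesicle-treated TFs it was 0.139% ± 0.0709 and 2.87% ± 0.171. All 1% libraries lay above all 20% libraries, but *Cox4i1* still made up more than 90% of the pair in each. These shares are a description, and without division by length they were lower for both pairs, at 53.9% for *Ndufa4l2* and 1.43% for *Cox4i2* in Ctrl TFs in 1% O2.

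**Figure D3:**
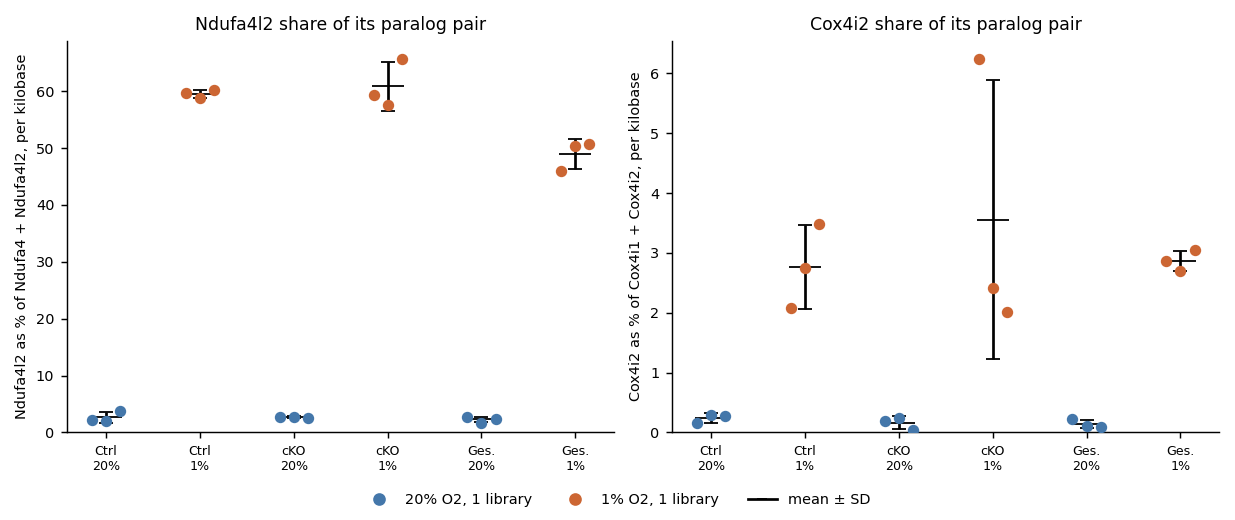
Share of the hypoxic form in its pair's counts per kilobase, in percent (linear axes from 0), with 1 point per library and the mean ± SD of each group; Ges. marks gesicle-treated Ctrl TFs. *Ndufa4l2* goes from under 4% to between 46.0% and 65.7%, and *Cox4i2* from under 0.3% to between 2.02% and 6.23%.

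The next question was whether loss of *Hif1a* changed these genes or their response to oxygen. None of the 10 was called between cKO and Ctrl TFs: edgeR called 0 in 20% O2, where 0.347% of all genes were called, and 0 in 1% O2, where 0.0379% were. At an unadjusted p under 0.05 there was 1 gene in each (*Bnip3l* in 20% and *Ndufa4l2* in 1% O2), beside 14.3% and 16.8% of all genes. DESeq2 and limma voom with sample weights also called 0. With voom, however, 2 genes in each comparison had an adjusted p under 0.05 and missed a call only by their fold change. They were *Bnip3l* (adjusted p = 0.0335 by voom) and *Lonp1* (0.0285 by voom) in 20% O2. In 1% O2 they were *Ndufa4l2* (0.00795 by voom) and *Ndufa4* (0.0195 by voom). With edgeR and DESeq2, 0 of the 10 had an adjusted p under 0.05 in either comparison. The difference between genotypes in the oxygen response was called for 0 of 10 by edgeR, DESeq2 and voom, with 0 at an unadjusted edgeR p under 0.05, where 2.32% of all genes had one, and edgeR called 0 of all 15850 genes (0%).

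*Ndufa4l2* was the gene with the largest genotype difference in 1% O2. Its 3 cKO libraries lay above its 3 Ctrl libraries, with means of 115 ± 6.29 against 78.7 ± 7.13 CPM, a log2 difference of 0.54 (95% interval 0.00 to 1.08, adjusted p = 0.297 by edgeR). In 20% O2 the difference was 0.43 (-0.19 to 1.05), and it was -0.05 without replicate 2 of cKO TFs. *Higd1a* differed by 0.40 (-0.05 to 0.85) in 20% and 0.39 (-0.06 to 0.84) in 1% O2, which became 0.11 without replicate 2 in 20% O2 and 0.20 without the shallow library in 1% O2. *Bnip3* differed by 0.09 (-0.35 to 0.52) and 0.10 (-0.33 to 0.53), and *Mgarp* by 0.04 (-1.37 to 1.45) and 0.06 (-0.82 to 0.94), with the widest intervals after those of *Cox4i2*. Without the shallow library, the values of *Bnip3* and *Mgarp* in 1% O2 were -0.14 and -0.22.

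For the complex IV pair, *Cox4i2* differed by -0.15 (-1.68 to 1.38) in 20% and 0.53 (-0.68 to 1.75) in 1% O2, which became -1.23 without replicate 2 of cKO TFs in 20% and -0.08 without the shallow library in 1% O2. *Cox4i1* differed by 0.31 (-0.10 to 0.73) and 0.22 (-0.20 to 0.63). *Ndufa4* differed by 0.37 (-0.15 to 0.89) and 0.47 (-0.06 to 0.99), *Bnip3l* by 0.33 (0.04 to 0.63) and 0.17 (-0.12 to 0.47), *Fundc1* by 0.25 (-0.15 to 0.65) and 0.28 (-0.12 to 0.68), and *Lonp1* by -0.34 (-0.70 to 0.01) and -0.12 (-0.47 to 0.24). Positive values outnumbered negative ones, 8 to 2 in 20% and 9 to 1 in 1% O2, with medians of 0.28 and 0.25 beside 0.03 and 0.00 over all genes. In 20% O2 the count moved with replicate 2 of cKO TFs, without which *Ndufa4*, *Cox4i1*, *Ndufa4l2*, *Bnip3* and *Mgarp* turned negative (-0.07, -0.01, -0.05, -0.14 and -0.31). In 1% O2 the 9 to 1 became 7 to 3 without the shallow library, where *Cox4i2*, *Mgarp* and *Bnip3* were negative and *Lonp1* was 0.07. The groups did not overlap for 3 of 10 genes in 20% O2 and 4 of 10 in 1% O2, beside 21.2% and 27.3% of all genes.

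In replicate 2 of cKO TFs in 20% O2, all 10 genes lay above the mean of the other libraries of the group. The log2 departures were 0.14 (*Lonp1*) to 1.95 (*Cox4i2*). Other genes moved with it: 14 of 14 complex IV subunits outside the list were above, with a median of 0.80, the median of 93 ribosomal protein genes was 0.80, and genes with under 1500 bases of exons had a median of 0.62 where those over 5000 bases had -0.41. The part of these shifts in the genotype values was not tested beyond leaving the library out. In the shallow library 8 of the 10 genes lay above the mean of the others, among them *Cox4i2*, *Mgarp*, *Bnip3*, *Higd1a* and *Fundc1*, by 1.505, 0.81, 0.66, 0.53 and 0.49, and *Lonp1* was the lowest of its group, by -0.60. There 11 of the 14 other complex IV subunits were above as well (median 0.33), and genes with under 1500 bases of exons had a median of 0.37 where those over 5000 bases had -0.14.

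**Figure D4:**
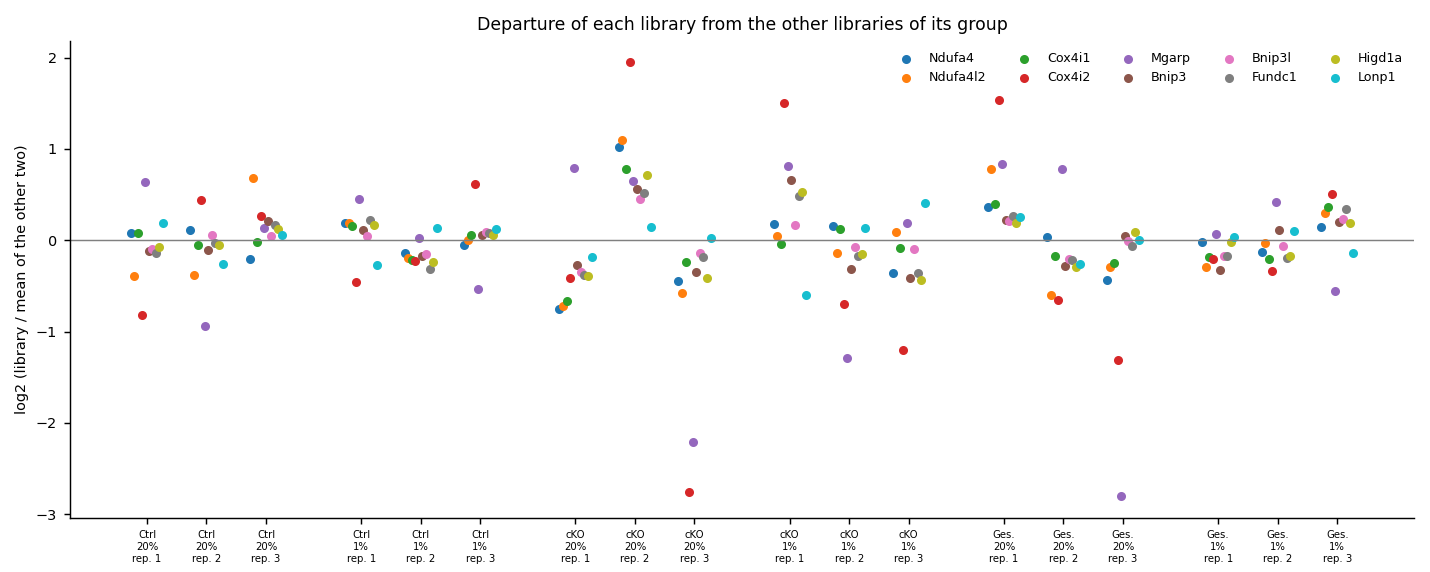
Departure of each library from the other libraries of its group, as log2 of the library's CPM over the mean of the others (y axis), with 1 coloured point per gene and library; Ges. marks gesicle-treated Ctrl TFs. In replicate 2 of cKO TFs in 20% O2 all 10 points lie above 0, from 0.14 to 1.95, as they also do in replicate 1 of gesicle-treated TFs in 20% O2.

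The genotype difference in the oxygen response itself ran from -0.16 (*Bnip3l*, 95% interval -0.58 to 0.25) to 0.68 (*Cox4i2*, -1.28 to 2.65). It was 0.01 (-0.60 to 0.62) for *Bnip3*, -0.01 (-0.65 to 0.62) for *Higd1a*, 0.11 (-0.72 to 0.94) for *Ndufa4l2* and 0.02 (-1.67 to 1.71) for *Mgarp*. The intervals for *Mgarp* and *Cox4i2* were too wide to bound a difference closely. Without replicate 2 in 20% O2 the differences were all positive, from 0.03 (*Bnip3l*) to 1.77 (*Cox4i2*), with edgeR adjusted p from 0.737 to 0.958. Without the shallow library 6 of the 10 were negative, *Bnip3* at -0.21, *Higd1a* at -0.19 and *Mgarp* at -0.24 among them, and *Cox4i2* was 0.09, with an edgeR adjusted p of 1 for each gene.

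Gesicle-treated and untreated Ctrl TFs were compared at each O2 level. No group was given gesicles without Cre, so a difference due to the vesicles and one due to Cre cannot be told apart. No gene of the 10 was called: edgeR called 0 in 20% O2, with 0 at an unadjusted p under 0.05, and 0 in 1% O2, with *Mgarp* and *Bnip3* (2 genes) at an unadjusted p under 0.05, while 0.0247% and 0% of all 16174 genes were called and 3.67% and 2.0% had an unadjusted p under 0.05. DESeq2 and voom also called 0 of 10 in both. In 1% O2, 4 of the 5 genes with the steepest oxygen response, all but *Cox4i2*, had lower levels in every gesicle-treated library than in any untreated one, though none was called. *Mgarp* had 2.45 ± 0.543 CPM with and 6.003 ± 1.35 CPM without gesicles (log2 difference -1.29, 95% interval -2.21 to -0.38). *Bnip3* had 273 ± 34.8 and 387 ± 27.1 CPM (-0.51, -0.90 to -0.11), *Ndufa4l2* 58.2 ± 7.90 and 78.7 ± 7.13 CPM (-0.44, -0.98 to 0.10) and *Higd1a* 79.1 ± 6.54 and 97.2 ± 9.38 CPM (-0.30, -0.69 to 0.10). These were 4 of 10 genes without overlap, all lower, where 6.32% of all genes did not overlap and 3.35% were lower. None of the 4 passed the adjustment over all genes. *Ndufa4l2* and *Mgarp* among them were chosen for their rise in 1% O2. The untreated 1% libraries also entered the ranking by oxygen response. High values in those libraries favour a lower reading with gesicles, so the count of 4 is a description and not a test.

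*Cox4i2*, the other gene with a called oxygen response, did not share this: its difference in 1% O2 was 0.12 (-0.97 to 1.21) and its groups overlapped. The other 5 genes lay between -0.10 (*Bnip3l*) and 0.17 (*Ndufa4*). In 20% O2 no gene was free of overlap, beside 12.5% of all genes, and the differences ran from -0.64 (*Cox4i2*, -2.09 to 0.82) to 0.08 (*Cox4i1*, -0.32 to 0.47). The gesicle difference in the oxygen response was -0.33 (-0.88 to 0.23) for *Bnip3*, -0.72 (-2.50 to 1.06) for *Mgarp*, -0.24 (-1.07 to 0.58) for *Ndufa4l2*, -0.27 (-0.83 to 0.29) for *Higd1a* and 0.76 (-1.05 to 2.57) for *Cox4i2*, and edgeR called 0 of 10, with 0 at an unadjusted p under 0.05, where 0% and 1.5% of all genes were. The gesicle comparisons and the cKO comparisons share their Ctrl libraries, so their values are not independent of each other. The differences between oxygen responses use those libraries too.

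**Figure D5:**
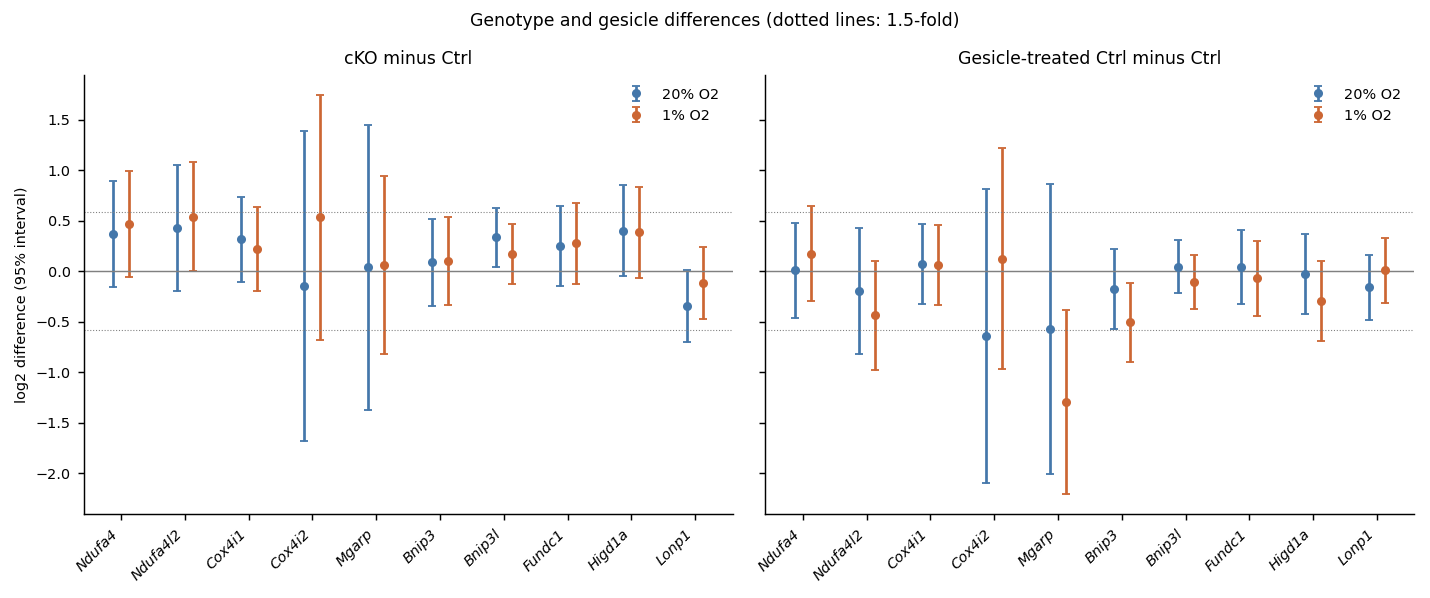
Log2 difference of cKO minus Ctrl TFs (left) and of gesicle-treated minus untreated Ctrl TFs (right) for the 10 genes at each O2 level, with 95% intervals from the edgeR fits; dotted lines mark a fold change of 1.5. Most intervals cross 0, and those of *Cox4i2* and *Mgarp* are the widest. Those of *Mgarp* and *Bnip3* with gesicles in 1% O2 lie below 0, and those of *Bnip3l* in 20% and, barely, *Ndufa4l2* in 1% O2 between genotypes lie above it.

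Lists of related genes were read in the same fits, and edgeR called 0 genes of any list in any comparison. In the oxygen response of Ctrl, cKO and gesicle-treated TFs, an unadjusted p under 0.05 was reached by 4, 2 and 5 of 15 mitophagy adaptor and PINK1-parkin genes, 2, 5 and 3 of 23 autophagosome formation genes, 2, 3 and 0 of 14 genes of mitochondrial fission, fusion and transport, 3, 1 and 2 of 14 other complex IV subunits, and 1, 1 and 2 of 11 mitochondrial proteases, chaperones and HIG1 family genes, beside 16.1%, 19.8% and 17.3% of all genes. DESeq2 called 0, 0 and 0, then 0, 1 and 0, then 0, 1 and 0, then 1, 0 and 2, and 0, 0 and 0 of them in the same order, and voom 0, 0 and 1, then 0, 1 and 0, then 0, 2 and 0, then 1, 1 and 0, and 0, 0 and 0. Over all genes DESeq2 called 696, 892 and 732 in these responses, and voom 1543, 2718 and 746. The list medians in Ctrl TFs were between -0.05 and 0.11 on the log2 scale. *Cox6a2*, a form of complex IV subunit 6A used in muscle and named after its values were seen, went from 0.895 ± 0.312 to 0.145 ± 0.0492 CPM in Ctrl TFs (-2.58, SE 0.74, adjusted p = 0.104 by edgeR), at levels near the detection limit.

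*Gabarapl1*, which encodes an ATG8 protein of the autophagosome membrane, was the gene of these lists with an edgeR adjusted p under 0.05 in 2 arms. It was named after its values were seen. Its means were 192 ± 9.54 and 267 ± 19.9 CPM in cKO TFs (log2 fold change 0.48, SE 0.11, adjusted p = 0.0421 by edgeR) and 173 ± 21.9 and 239 ± 30.4 CPM in gesicle-treated TFs (0.47, SE 0.12, adjusted p = 0.0444 by edgeR), both under the fold change of 1.5. In Ctrl TFs it was 0.39 (SE 0.11, adjusted p = 0.0988 by edgeR), and in each arm its O2 groups did not overlap.

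Between genotypes, 14 other complex IV subunits had a median log2 difference of 0.43 in 20% O2 and 0.31 in 1% O2. Over all genes the medians were 0.03 and 0.00. Of the 14, 0 were called by edgeR, DESeq2 or voom. An unadjusted edgeR p under 0.05 was reached by 5 and 0, beside 14.3% and 16.8% of all genes. *Cox4i1* and *Ndufa4*, at 0.31 and 0.37 in 20% O2, lay close to the list median of 0.43. In replicate 2 of cKO TFs in 20% O2 all 14 were above the other libraries of the group (median 0.80). All 14 were also above in replicate 1 of Ctrl TFs in 1% O2 (median 0.16). In the shallow cKO library in 1% O2, 11 were above (median 0.33). Genes with under 1500 bases of exons were higher too in replicate 2 and in the shallow library, with medians of 0.62 and 0.37. Without replicate 2, *Cox4i1* and *Ndufa4* were at -0.01 and -0.07 in 20% O2. The list medians between genotypes were not taken without these libraries, and the medians over all genes were not matched for gene length. The genotype differences of the 14 in 1% O2 were all positive, from 0.13 to 0.98. Of the 23 genes of autophagosome formation, 4 had an unadjusted edgeR p under 0.05 in 20% and 7 in 1% O2. The shares of all genes were 14.3% and 16.8%. On this list DESeq2 called 0 and 1 and voom 2 and 4. Of all 15850 genes, DESeq2 called 443 and 302 and voom 1585 and 1274. The gesicle comparisons had 1 and 0 genes at an unadjusted p under 0.05 over all lists, beside 3.67% and 2.0% of all genes. DESeq2 and voom called 0 of the listed genes there.

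For 4 genes, the 3 genes nearest in pattern were taken as those with the smallest root mean square difference between the 6 group means of log2 CPM, each gene centred on its own mean, over 16174 genes. *Mgarp* was nearest to *Ndufa4l2* (0.432), followed by the lactate exporter *Slc16a3* (0.489) and *Ces1f* (0.869), a carboxylesterase. *Mgarp* in turn had *Ndufa4l2*, *Ces1f* (0.638) and *Cox4i2* (0.682). *Cox4i2* had *Ankrd37* (0.419), the growth factor *Mdk* (0.619) and *Prl2c3* (0.629), a gene of a family with near-identical copies whose reads the counting could split. *Bnip3* had *Actn3* (0.178), *Egln3* (0.181), a HIF prolyl hydroxylase, and *Aldoc* (0.182), a glycolytic enzyme. These distances describe 6 group means and were not tested.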

How the data were processed

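The authors aligned paired-end reads with STAR to GRCm38, estimated counts per gene with RSEM 1.3.3 and used FastQC 0.11.8 and MultiQC 1.20, per the labels and the study's methods. The deposited estimated counts are whole numbers, not normalized, for 55491 rows (4 are transgenes) and 18 libraries of 6857558 to 51806453 counts, and no column of sample values was left unused (0). Tests compare the spread between 3 libraries per group, which the study's methods give as biological replicates, and intervals cover no other error. Reads from a gene and an overlapping antisense gene cannot be told apart where the counting did not use strand, which is not given in the sources used here. No pair of libraries agreed within sampling noise (smallest chi-square per degree of freedom 36.3).

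Counts were fitted with edgeR 4.0.16 (R 4.3.3; filterByExpr, TMM, quasi-likelihood test, 1 coefficient per group): the 12 Ctrl and cKO libraries (15850 genes tested) for the oxygen responses and genotype, and all 18 (16174 genes) for the gesicle comparisons. A call is a Benjamini-Hochberg adjusted p under 0.05 over all genes tested and a fold change of at least 1.5. SE is the log2 fold change over the root of F, with 95% intervals. CPM come from the fit of 18. The tools were tested on simulated data. Alternatives were RLE size factors, DESeq2 1.42.0, limma 3.58.1 voom with sample weights, no filter on low counts, no fold minimum, a replicate block, other sets of libraries, thinning to the smallest total, and leaving out each library. Scripts ran in Python 3.11.15 and plots in matplotlib 3.10.9.

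The genes, lists and tests were chosen with earlier results of these data known. Named genes are all 10 members, *Hif1a*, list genes that were called (none were, so *Gabarapl1* and *Cox6a2* were named after their values were seen) and the 3 nearest in pattern to 4 members. Lists of muscle, leukocyte and epithelial markers summed to at most 41.8, 4.08 and 0.498 CPM in any library. The deviations of same-numbered libraries from their group means correlated above 0.1 in each of 3 pairs between Ctrl TFs in 20% and 1% O2 (0.271 to 0.458) and between gesicle-treated and untreated TFs in 20% (0.346 to 0.462) and 1% O2 (0.193 to 0.284), so the numbers pair the samples there. In the other comparisons not every pair correlated above 0.1, which does not show that those samples were unpaired. By way of the paired Ctrl libraries, gesicle-treated libraries of the same number in 20% and 1% O2 would be linked as well. Their own correlations, from -0.00612 to 0.216, did not show this link. The main fits did not use pairing, and the replicate block did.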

Additional observations from a re-analysis of the deposited data

How the results depend on the processing

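Of 1380 values of the 10 genes under alternatives, 1258 kept their direction and side of the threshold, 98 changed sign, 20 lost and 2 gained a call, 2 untested values moved (*Mgarp* on thinned counts, 8.34 in Ctrl and 6.88 in gesicle-treated TFs), and none of the 98 was called in that alternative (0). The cause of these changes was not tested. The number of genes called in the oxygen response of Ctrl TFs was 1 to 3 of 8 on leaving out 1 library. With the replicate block no call changed for the 10 genes, with 3, 3 and 3 of 8 called in the oxygen responses of Ctrl, cKO and gesicle-treated TFs, and sign changed for the genotype difference in oxygen response of *Mgarp* (-0.0508) and *Higd1a* (0.0054). In the comparisons where the correlations did not show pairing by number, they were 0.0921 to 0.368 (cKO oxygen response) and -0.00612 to 0.216 (gesicle-treated). Between genotypes they were -0.149 to -0.0407 in 20% O2 and -5.22e-05 to 0.218 in 1% O2. In the same order, the block gave 444 genes in place of 333, 472 in place of 390, 64 in place of 55 and 2 in place of 6. Not every library there correlated best with its own number.

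All signs that changed, as log2 values, were these. With voom, *Ndufa4* was 0.0916 in the oxygen response of cKO TFs. Between genotypes voom gave *Mgarp* -1.26 and *Bnip3* -0.11 in 20% O2, *Cox4i2* -0.12, *Mgarp* -0.34 and *Bnip3* -0.0692 in 1% O2, and *Cox4i1* 0.13 and *Higd1a* 0.12 for the difference in response. With gesicles voom gave *Ndufa4* -0.0581 and *Cox4i1* -0.0046 in 20% O2, and *Cox4i2* -0.17, *Cox4i1* -0.0286 and *Lonp1* -0.0093 in 1% O2. The *Higd1a* difference in response between genotypes was 0.016 with RLE size factors and 0.016 with DESeq2. Thinned counts gave *Mgarp* -2.97 and *Ndufa4l2* -0.54 for that difference, *Bnip3l* -0.0408, *Fundc1* -0.0133, *Ndufa4* -0.10, *Higd1a* 0.0126 and *Ndufa4l2* 0.36 with gesicles in 20% O2, *Cox4i2* -0.0515 in 1% O2, and *Cox4i1* 0.10 for the gesicle difference in response, which was 0.0027 in the fit of 12 Ctrl and gesicle-treated libraries.

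On leaving out 1 library, 33 values crossed 0. In the oxygen response of cKO TFs *Ndufa4* ran from -0.46 to 0.20 and *Cox4i1* from -0.45 to 0.0637. Between genotypes in 20% O2 *Cox4i2* ran from -1.23 to 0.37, *Ndufa4* from -0.0705 to 0.58, *Cox4i1* from -0.0085 to 0.50, *Mgarp* from -0.31 to 0.52, *Ndufa4l2* from -0.0510 to 0.69 and *Bnip3* from -0.14 to 0.19. In 1% O2 *Cox4i2* ran from -0.0753 to 0.86, *Mgarp* from -0.22 to 0.40, *Lonp1* from -0.25 to 0.067 and *Bnip3* from -0.14 to 0.23. The genotype difference in response ran from -0.27 to 0.0291 for *Bnip3l*, -0.12 to 0.25 for *Fundc1*, -0.12 to 0.55 for *Ndufa4*, -0.29 to 0.24 for *Cox4i1*, -0.46 to 0.38 for *Mgarp*, -0.19 to 0.29 for *Higd1a*, -0.15 to 0.60 for *Ndufa4l2* and -0.21 to 0.25 for *Bnip3*. With gesicles in 20% O2 *Bnip3l* ran from -0.0261 to 0.11, *Fundc1* from -0.0531 to 0.11, *Ndufa4* from -0.12 to 0.14, *Cox4i1* from -0.0680 to 0.15, *Higd1a* from -0.0938 to 0.0660 and *Ndufa4l2* from -0.50 to 0.0463. In 1% O2 *Cox4i2* ran from -0.0616 to 0.38, *Fundc1* from -0.20 to 0.0326, *Cox4i1* from -0.0725 to 0.15 and *Lonp1* from -0.0526 to 0.0718. The gesicle difference in response ran from -0.22 to 0.0054 for *Fundc1*, -0.13 to 0.13 for *Cox4i1* and -0.47 to 0.0597 for *Ndufa4l2*.

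Over all genes, the calls depended on the tool. In the oxygen responses of Ctrl, cKO and gesicle-treated TFs edgeR called 298, 333 and 390 genes, DESeq2 696, 892 and 732, voom 1543, 2718 and 746, and edgeR on thinned counts 208, 271 and 228. Between genotypes in 20% and 1% O2 the counts were 55 and 6 with edgeR, 443 and 302 with DESeq2, 1585 and 1274 with voom, 281 and 111 with no filter on low counts and 87 and 14 in the fit of 18. On leaving out 1 library edgeR gave 1 to 154 in 20% O2 (1 without Ctrl replicate 1 or cKO replicate 3, 154 without cKO replicate 1, 10 without Ctrl replicate 3 and 28 without cKO replicate 2), and in 1% O2 it gave 6 without the shallow library and 0 without any other. Without replicate 2 of cKO TFs in 20% O2, 1373 genes were called in the oxygen response of cKO TFs. The 7 or fewer counts of *Mgarp* per Ctrl library in 20% O2 limit its fold change.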
